A study of Homo sapiens with 5 samples.

Results

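A set of 10 genes of zinc handling was followed in LX-2, a permanent cell line made from hepatic stellate cells of human liver, which lay down most of the scar matrix of that organ. They were 6 metallothioneins (MT1E, MT1F, MT1G, MT1M, MT1X and MT2A), the zinc-sensing transcription factor MTF1, the zinc exporter SLC30A1 and the zinc importers SLC39A10 and SLC39A14, 10 of the 19936 genes listed. They were found by the Ensembl ID of the current symbol. The list was chosen by name, with the siLIX1L against control differences of these same libraries in view, in which MT1E stood among the large increases. The difference between the groups in the 10 genes is therefore given as a description, and the p-values beside it, taken from a fit over all genes, are not independent evidence. RNA was sequenced 48 h after transfection from 3 libraries of cells given an siRNA against LIX1L (siLIX1L), a gene whose product has a predicted domain for binding double-stranded RNA, and from 2 libraries of cells given a control siRNA (control). All 5 libraries come from the 1 cell line, the labels do not say whether they are separate cultures, and the p-values measure the spread between these libraries only.

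Metallothioneins are small cysteine-rich proteins that bind zinc, copper and cadmium through the sulphur atoms of their cysteines and so buffer the free zinc of the cell. When free zinc rises, MTF1 enters the nucleus and binds metal response elements, short sequences in the promoters of metallothionein genes and of SLC30A1, and these genes are transcribed. SLC30A1, or ZnT1, moves zinc out of the cell across the plasma membrane, while SLC39A10 and SLC39A14, or ZIP10 and ZIP14, move it in, SLC39A14 also carrying iron and manganese. In the liver metallothioneins are known chiefly from hepatocytes, where zinc, glucocorticoids and inflammation raise them.

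The 6 metallothioneins lie together on chromosome 16 and are near copies of each other, which bears on how far their reads can be told apart. Each of the 6 has a coding sequence of 186 bases, 61 codons and a stop, of which 20 code for cysteine (principal transcripts of GENCODE 29, GRCh38). Between MT2A and the others 9 to 19 of the 186 bases differ, 14 of them in MT1E (identity of 92.5%). The coding strands of the gene with the most reads, of the gene with the largest difference, of 1 that hardly differed and of the 1 hardest to tell apart are shown, with capitals where the base is not that of MT2A.
MT2A: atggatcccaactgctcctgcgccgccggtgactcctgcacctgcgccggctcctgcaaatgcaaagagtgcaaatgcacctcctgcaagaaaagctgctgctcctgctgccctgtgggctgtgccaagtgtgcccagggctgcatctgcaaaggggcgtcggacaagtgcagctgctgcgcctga
MT1E: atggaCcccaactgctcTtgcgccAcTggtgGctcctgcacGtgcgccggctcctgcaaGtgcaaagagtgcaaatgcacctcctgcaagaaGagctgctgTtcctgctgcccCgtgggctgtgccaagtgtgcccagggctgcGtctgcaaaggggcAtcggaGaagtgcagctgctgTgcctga
MT1F: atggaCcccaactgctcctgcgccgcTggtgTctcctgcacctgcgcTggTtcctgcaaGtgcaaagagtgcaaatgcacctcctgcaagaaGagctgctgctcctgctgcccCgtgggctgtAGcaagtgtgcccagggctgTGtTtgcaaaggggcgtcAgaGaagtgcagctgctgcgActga
MT1X: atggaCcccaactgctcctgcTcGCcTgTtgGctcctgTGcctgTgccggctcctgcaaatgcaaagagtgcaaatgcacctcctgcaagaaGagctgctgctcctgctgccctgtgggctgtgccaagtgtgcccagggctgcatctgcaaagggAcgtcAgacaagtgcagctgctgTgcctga
In all 4 the codons for cysteine, tgc and tgt, recur along the whole length. The differences from MT2A are spread along it in MT1E and MT1F, while in MT1X most of them lie near the start. Of the 50-base stretches of the whole transcript, 94.7% in MT1E, 95.1% in MT2A, 96.4% in MT1F and 92.9% in MT1M occur in no other annotated gene, so that most such stretches name 1 gene. For MT1G the share was 79.8% and for MT1X 54.9%, and MT1X shares stretches with AC026461.1, MT1G, MT1XP1 and MT1A, among the annotated genes. Stretches found in no other gene and lying inside 1 exon made up 81.7% of all in MT1E and 82.1% in MT2A. They made up 84.7% in MT1F, 82.3% in MT1M, 65.0% in MT1G and 54.4% in MT1X. The sources used here do not give the read length or what was done with reads of several matches, and the values of MT1X are uncertain for this reason.

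Promoters were at hand for 5 of the 10 genes, as 300 bases around a transcription start, 250 before it and 50 after (RefSeq, GRCh38.p14). They were searched on both strands for the core of the metal response element, TGCACNC or TGCGCNC. At least 1 match was found in 29.6% of the 35116 promoters of that length and at least 8 in 0.0199%. The promoters of MT2A (chr16:56608334-56608633, plus strand), MT1X (chr16:56682220-56682519, plus strand) and SLC30A1 (chr1:211579112-211579411, minus strand) are shown since they hold the most matches among the 5 genes searched; capitals mark a match, written GNGTGCA or GNGCGCA where it is on the opposite strand.
MT2A promoter: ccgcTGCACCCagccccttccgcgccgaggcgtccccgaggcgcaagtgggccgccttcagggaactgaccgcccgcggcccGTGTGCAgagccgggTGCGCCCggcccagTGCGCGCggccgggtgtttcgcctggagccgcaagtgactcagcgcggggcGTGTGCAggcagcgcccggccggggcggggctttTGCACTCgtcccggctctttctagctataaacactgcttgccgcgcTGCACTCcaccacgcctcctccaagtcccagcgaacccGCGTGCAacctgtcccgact
MT1X promoter: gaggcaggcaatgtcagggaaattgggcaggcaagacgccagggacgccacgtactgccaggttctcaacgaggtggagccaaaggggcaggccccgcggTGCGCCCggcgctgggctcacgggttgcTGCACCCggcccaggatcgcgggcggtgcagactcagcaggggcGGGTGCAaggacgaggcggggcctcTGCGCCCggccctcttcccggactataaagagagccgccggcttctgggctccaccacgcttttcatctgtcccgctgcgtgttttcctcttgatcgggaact
SLC30A1 promoter: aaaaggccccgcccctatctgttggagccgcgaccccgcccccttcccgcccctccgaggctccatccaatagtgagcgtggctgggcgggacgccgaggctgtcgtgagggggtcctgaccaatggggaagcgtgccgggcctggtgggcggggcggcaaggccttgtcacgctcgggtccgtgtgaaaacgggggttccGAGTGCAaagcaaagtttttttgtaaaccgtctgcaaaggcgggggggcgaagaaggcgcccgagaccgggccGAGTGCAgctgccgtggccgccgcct
MT2A held 8 matches, MT1X 4, a number reached by 0.601% of promoters, and SLC30A1 2, a number reached by 8.60%. The promoter of MTF1 held 0, and the 2 annotated starts of SLC39A10 held 0 and 1. A match describes the letters only, and no binding was measured.

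Libraries held 14856104 to 17811940 reads in siLIX1L cells and 14877647 and 18294056 in control cells. LIX1L itself had 98, 107 and 65 reads in siLIX1L 1, 2 and 3, against 393 and 649 in control 1 and 2, lower in each library labelled siLIX1L. The 11 stellate cell markers summed to similar levels in siLIX1L libraries and to widely different ones in control libraries (6154 to 6720 RPM, reads per 1000000 in all genes, in siLIX1L cells, 3513 and 9810 in control cells), COL1A1, SPARC, VIM and COL3A1 making up most of the sum. By edgeR 8 of the 10 markers tested were negative and 1 was called lower, ACTA2, smooth muscle actin (edgeR, adjusted p = 0.0460). Over all genes tested by edgeR, 6867 of 13026 were negative and 0.883% were called lower. ACTA2 had 8.41 to 14.8 RPM in siLIX1L cells and 35.4 and 39.0 RPM in control cells. Limma called 0 of 8, of which 1 had an unadjusted p under 0.05, as did 27.6% of all genes it tested. ACTA2, DCN and DES lay below its minimum and were not tested by it. Of the 10 markers tested by DESeq2, COL1A2, ACTA2, LUM and DCN were called lower, where 6.22% of all genes were. DES, a muscle-type filament of stellate cells, had at most 5 reads in siLIX1L libraries and 13 in a control library. The 5 hepatocyte markers summed to 1.52 to 3.26 RPM in siLIX1L cells and 3.23 and 6.50 RPM in control cells, nearly all of it SERPINA1, and ALB had 0 reads in siLIX1L cells and 1 in each control library. The 5 leukocyte markers summed to 5.73 to 9.47 RPM in siLIX1L cells and 10.9 and 37.6 RPM in control cells, most of it CD14, which had 84 to 118 reads in siLIX1L libraries and 131 and 653 in control libraries (DESeq2, adjusted p = 0.0111; not called by limma or edgeR). Endothelial and cholangiocyte markers each summed to at most 6.75 RPM in every library. Mitochondrially encoded genes took 1.08 to 1.29% of reads in siLIX1L cells and 2.24 and 3.35% in control cells, and the part of this and of the markers in the results was not tested. The closest pair of libraries was siLIX1L 1 and 2, with a chi-square per gene of 5.38, against 52.7 or above for the other pairs.

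In siLIX1L cells 4 of the 9 genes with reads were higher than in control cells in every library (MT1E, MT2A, MTF1 and SLC30A1), and 0 were wholly lower. Over the 13026 genes tested by edgeR, 22.2% lay wholly higher and 21.8% wholly lower. Of the 6 members that reached the minimum level for limma, the test fitted over all genes on the log2(FPKM + 1) scale, 1 passed the threshold and was higher (MT1E), where 0.743% of the 6464 genes tested were called higher and 1.13% lower. EdgeR, run on reads recovered from the deposited values, called 2 of 9 higher (MT1E and MTF1), where 0.56% of 13026 genes were called higher and 0.883% lower. DESeq2 on the same reads called 3 higher (MT1E, MT2A and MTF1), where 6.32% of 13334 genes were called higher and 6.22% lower. These 3 tools called 0 members lower. The median log2 difference of the members tested by limma was 0.35, against -0.01 over all genes tested. Since the list was drawn up with this comparison known, nothing is read from these shares.

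MT2A and MT1E carried nearly all of the family's RNA, and both were higher in every siLIX1L library than in either control library. On a scale that allows genes to be compared, reads per kilobase of transcript per 1000000 reads (RPKM), MT2A had 707, 516 and 620 in siLIX1L 1, 2 and 3, against 257 and 396 in control 1 and 2. MT1E had 137, 125 and 138 RPKM in siLIX1L cells and 41.1 and 47.1 in control cells. After these came SLC39A14, at 72.9, 74.6 and 82.9 RPKM in siLIX1L cells and 88.8 and 56.1 in control cells. MT1E thus stood above SLC39A14 in each siLIX1L library and below it in each control library. SLC30A1 followed at 14.1 to 16.5 RPKM in siLIX1L cells and 8.46 and 13.2 in control cells. MT1F, MTF1, SLC39A10 and MT1M lay between 2.16 and 7.89 RPKM in siLIX1L cells and between 1.70 and 8.16 in control cells, their order differing between libraries. MT1X stayed between 1.34 and 1.91 RPKM in all 5 libraries, and MT1G had 0 reads in all of them, where a count of 0 allows up to 3 reads or 0.164 to 0.202 RPM. In bulk RNA more cells with a transcript and more of it per cell cannot be told apart.

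**Figure D1:**
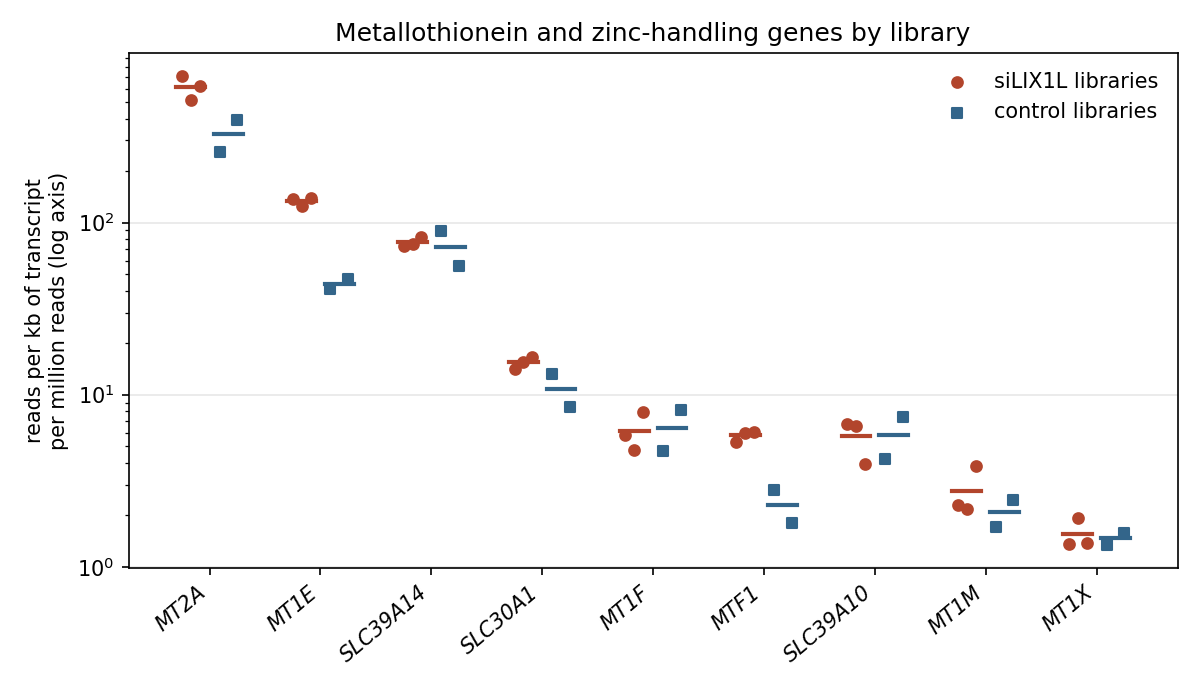
Level of each member gene with reads in each library (RPKM of transcript, log axis), siLIX1L left and control right. MT1G, with 0 reads, is not drawn. MT1E (125 to 138 RPKM in siLIX1L cells, 41.1 and 47.1 in control cells), MT2A, MTF1 and SLC30A1 do not overlap between the groups, and the other genes drawn do.

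The 6 metallothioneins together took 658, 499 and 594 RPM in siLIX1L 1, 2 and 3, against 236 and 352 RPM in control 1 and 2. The groups did not overlap, with means of 584 ± 79.8 RPM in siLIX1L cells (SD, n = 3) and 294 ± 82.4 RPM in control cells (SD, n = 2), a ratio of 1.98. MT2A and MT1E made up 98.4 to 99.0% of this sum in siLIX1L cells and 97.6 and 97.8% in control cells. Within the pair the balance also differed: for each 100 reads of MT2A there were 17.3, 21.7 and 19.98 reads of MT1E in siLIX1L 1, 2 and 3, against 14.3 and 10.7 in control 1 and 2. These ratios are free of the scaling between libraries, and those of the siLIX1L libraries all lay above those of the controls. MT1E was already seen among the large increases when the list was chosen, so this balance is a description only.

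MT1E (chr16:56625475-56627112, GRCh38, plus strand) had 1428, 1327 and 1733 reads in siLIX1L 1, 2 and 3, against 430 and 607 in control 1 and 2. The deposited level, in FPKM (reads per kilobase of gene, introns included, per 1000000 reads), was 58.7, 53.6 and 59.4 in siLIX1L cells and 17.6 and 20.3 in control cells. Replicates lay close together and the groups far apart, at 57.2 ± 3.14 FPKM in siLIX1L cells (SD, n = 3) and 19.0 ± 1.85 FPKM in control cells (SD, n = 2). The mean was 3.02-fold higher in siLIX1L cells, and the ratio stayed between 2.83 and 3.24 with any 1 library left out. Counting error alone gives a 95% interval of 2.81 to 3.22 on the pooled reads. On the log2(FPKM + 1) scale the difference was 1.55 (SE 0.17; limma, adjusted p = 0.0384 over all genes tested). That call was lost with any 1 siLIX1L library left out (adjusted p = 0.0715 to 0.228), with siLIX1L 1 and 2 averaged, with no minimum level and with a trend on transcript length and GC content removed, while the difference itself remained between 1.45 and 1.91 over 15 other settings.

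MT2A (chr16:56608199-56609497, plus strand), the main metallothionein of most human cells, had 8252, 6126 and 8674 reads in siLIX1L 1, 2 and 3, against 3002 and 5687 in control 1 and 2. Its level was 428, 312 and 375 FPKM in siLIX1L cells and 155 and 239 FPKM in control cells. The spread within each group was wider than in MT1E, at 372 ± 57.8 FPKM in siLIX1L cells (SD, n = 3) and 197 ± 59.4 FPKM in control cells (SD, n = 2). The ratio of means was 1.88, between 1.55 without control 1 and 2.39 without control 2, and the log2 difference of 0.93 (SE 0.27) did not pass the test (limma, adjusted p = 0.0955). It passed with DESeq2 on the recovered reads (adjusted p = 0.0221) and with limma after quantile normalization (adjusted p = 0.0394), and not with edgeR (adjusted p = 0.105).

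The other metallothioneins gave few reads. MT1F had 60, 50 and 97 reads in siLIX1L 1, 2 and 3, against 48 and 103 in control 1 and 2. MT1M had 28, 27 and 57 reads in siLIX1L cells, against 21 and 37 in control cells. In both genes the groups overlapped, with log2 differences of -0.02 (SE 0.19; limma, adjusted p = 0.947) for MT1F and 0.21 (SE 0.18; adjusted p = 0.481) for MT1M. The sign for MT1F turned in 4 settings. MT1X had 9, 13 and 11 reads in siLIX1L cells and 9 and 13 in control cells, too few for the minimum of the limma fit (edgeR log2 difference 0.05, adjusted p = 0.949). Of 7 further metallothionein genes listed, MT1A had 6, 2 and 2 reads in siLIX1L cells and 7 and 11 in control cells, and MT1B, MT1H, MT1HL1, MT1IP, MT3 and MT4 had 0 in all 5 libraries.

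MTF1 (chr1:37809567-37859620, minus strand), which switches on metallothionein genes when zinc rises, was also higher in all siLIX1L libraries. It had 632, 720 and 859 reads in siLIX1L 1, 2 and 3, against 330 and 263 in control 1 and 2. This was 42.5, 47.7 and 48.2 RPM in siLIX1L cells and 22.2 and 14.4 RPM in control cells. The groups did not overlap, and the mean was 2.52-fold higher in siLIX1L cells (counting interval on pooled reads 2.36 to 2.84). Over its long gene this came to 0.922 ± 0.0626 FPKM in siLIX1L cells (SD, n = 3) and 0.365 ± 0.110 FPKM in control cells (SD, n = 2), below the minimum of the limma fit. On the recovered reads edgeR gave a log2 difference of 1.33 (adjusted p = 0.0490), which sat at the threshold: the adjusted p was 0.0516 with robust dispersion, 0.0896 to 0.235 with any 1 siLIX1L library left out and 0.0518 without control 2. It was 0.197 with the reads of siLIX1L 1 and 2 summed, and 0.107 in limma with no minimum level.

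**Figure D2:**
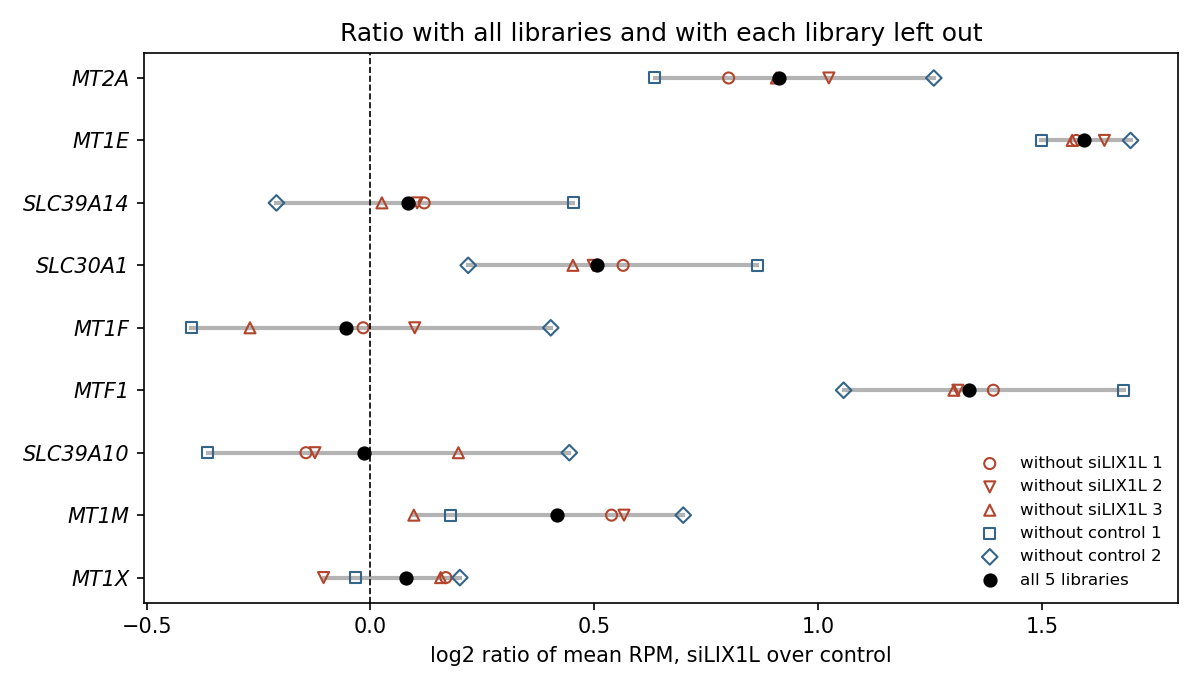
Ratio of mean RPM in siLIX1L over control cells for each gene with reads, with all 5 libraries and with each 1 left out (log axis). MT1E keeps between 2.83 and 3.24, while SLC30A1 runs from 1.16 without control 2 to 1.82 without control 1.

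SLC30A1 (chr1:211571568-211578742, minus strand), the exporter that MTF1 also controls, had 1148, 1287 and 1610 reads in siLIX1L 1, 2 and 3, against 1078 and 847 in control 1 and 2. In FPKM this was 10.8, 11.9 and 12.6 in siLIX1L cells and 10.1 and 6.45 in control cells, so that control 1 lay just under the lowest siLIX1L library. The log2 difference was 0.48 (SE 0.21; limma, adjusted p = 0.193), and it passed only with control 1 left out (adjusted p = 0.0288).

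The importers did not separate the groups. SLC39A14, on chromosome 8, had 5.06, 5.18 and 5.75 FPKM in siLIX1L 1, 2 and 3, within the range of 6.16 and 3.89 FPKM in control 1 and 2 (log2 difference 0.09, SE 0.20; limma, adjusted p = 0.782). SLC39A10 (chr2:195575977-195737702, plus strand) had 544, 541 and 381 reads in siLIX1L cells and 342 and 736 in control cells (edgeR log2 difference -0.05, adjusted p = 0.942). This was 36.6, 35.8 and 21.4 RPM in siLIX1L 1, 2 and 3, against 23.0 and 40.2 RPM in control 1 and 2. On that scale siLIX1L 3 lay below both control libraries, and the groups overlapped. The sign turned in 2 settings for each.

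Outside the 10 genes, transporters of the same families did not pass limma or edgeR. Their counts at an unadjusted p under 0.05 stand against a share of 27.6% of all genes tested by limma and 26.1% of those tested by edgeR, here and in the lists and neighbouring genes that follow. Of 9 other SLC30 exporters limma tested 4 and called 0 (0 at an unadjusted p under 0.05), edgeR called 0 of 6 (3 unadjusted) and DESeq2 0. All 4 differences in limma were positive, where 3194 of the 6464 genes tested were, and by edgeR 5 were positive and 1 negative. SLC30A7, an exporter into the Golgi, was at 1.05 ± 0.214 FPKM in siLIX1L cells and 0.692 ± 0.0754 FPKM in control cells (SD, n = 3 and 2; limma, adjusted p = 0.197). Of 12 other SLC39 importers limma tested 6 and called 0 (2 unadjusted), and edgeR called 0 of 8 (3 unadjusted). DESeq2 tested 8 and called SLC39A9 higher and SLC39A1 and SLC39A11 lower. Over all genes it called 6.32% higher and 6.22% lower. SLC39A1, a plasma membrane importer, had 12.0 ± 0.314 FPKM in siLIX1L cells and 18.3 ± 1.77 FPKM in control cells (SD, n = 3 and 2; limma log2 difference -0.56, adjusted p = 0.0858). SLC39A9, an importer of the Golgi and plasma membrane, had 2.34 ± 0.270 FPKM in siLIX1L cells and 1.40 ± 0.042 FPKM in control cells (limma log2 difference 0.47, adjusted p = 0.0817).

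Further described targets of MTF1, apart from metallothioneins and SLC30A1, did not pass the test. Limma tested 4 of the 6 and called 0 (2 unadjusted), all with negative differences, where 3270 of the 6464 genes tested were negative. EdgeR tested 6, 5 of them negative and 1 positive, and called 0 (2 unadjusted), and DESeq2 called 0. SELENOH, a selenoprotein of the nucleus, had 3.75 ± 0.427 FPKM in siLIX1L cells and 6.14 ± 0.475 FPKM in control cells (SD, n = 3 and 2; limma log2 difference -0.59, adjusted p = 0.0754). SELENOW had 7.30 ± 0.934 FPKM in siLIX1L cells and 12.3 ± 4.30 FPKM in control cells (log2 difference -0.65, adjusted p = 0.141).

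For copper, the other metal that metallothioneins hold, limma tested 4 of 9 handling genes and called 0 (1 unadjusted). EdgeR called 0 of 8 (2 unadjusted). DESeq2 called 1 of 8 lower, where it called 6.22% of all genes lower. This was CCS, the chaperone that loads copper into SOD1. CCS had 1.37 ± 0.162 FPKM in siLIX1L cells and 2.81 ± 1.10 FPKM in control cells (SD, n = 3 and 2; limma, adjusted p = 0.101). SOD1 had 15.3 ± 1.63 FPKM in siLIX1L cells and 19.1 ± 5.55 FPKM in control cells (adjusted p = 0.434). Glucocorticoids raise metallothionein transcription too. Of 9 genes listed for the response to them, among which is the receptor NR3C1, limma tested 6, of which 0 rose and 1 fell (2 unadjusted). Over all genes limma called 1.13% lower. EdgeR called 1 of 8 lower (3 unadjusted), where it called 0.883% of all genes lower. By edgeR 7 were negative, where 6867 of the 13026 genes tested were. DESeq2 called DUSP1 and PER1 lower, where it called 6.22% of all genes lower. The gene called by limma was DUSP1, a phosphatase of MAP kinases that stress also induces, at 20.4 ± 5.62 FPKM in siLIX1L cells and 76.9 ± 25.2 FPKM in control cells (SD, n = 3 and 2; log2 difference -1.86, limma, adjusted p = 0.0443), a call lost with any 1 siLIX1L library left out (0.0715 to 0.228), without control 2 (0.0602), with median-ratio scaling (0.0502), with no minimum level (0.114), with siLIX1L 1 and 2 averaged (0.182) and after removal of the trend on length and GC (0.0741).

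The 119 kb metallothionein cluster (chr16:56565049-56684196) was set against the genes on either side. Values are given for 7 neighbours within 250 kb, a window chosen after seeing the data. Limma tested 4 of these and called 0 (1 at an unadjusted p under 0.05), and edgeR called 0 of 6 (5 unadjusted). DESeq2 called 1 of 6, which was lower, where it called 6.22% of all genes lower. This was GNAO1, a G protein subunit, at 30.0 ± 1.98 RPM in siLIX1L cells and 57.0 ± 17.8 RPM in control cells (SD, n = 3 and 2; DESeq2 adjusted p = 0.0140). NUDT21, a factor of mRNA 3′ end cleavage, was the 1 of these neighbours tested by edgeR with a positive difference, at 246 ± 14.4 RPM in siLIX1L cells and 179 ± 20.5 RPM in control cells (edgeR, adjusted p = 0.175).

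**Figure D3:**
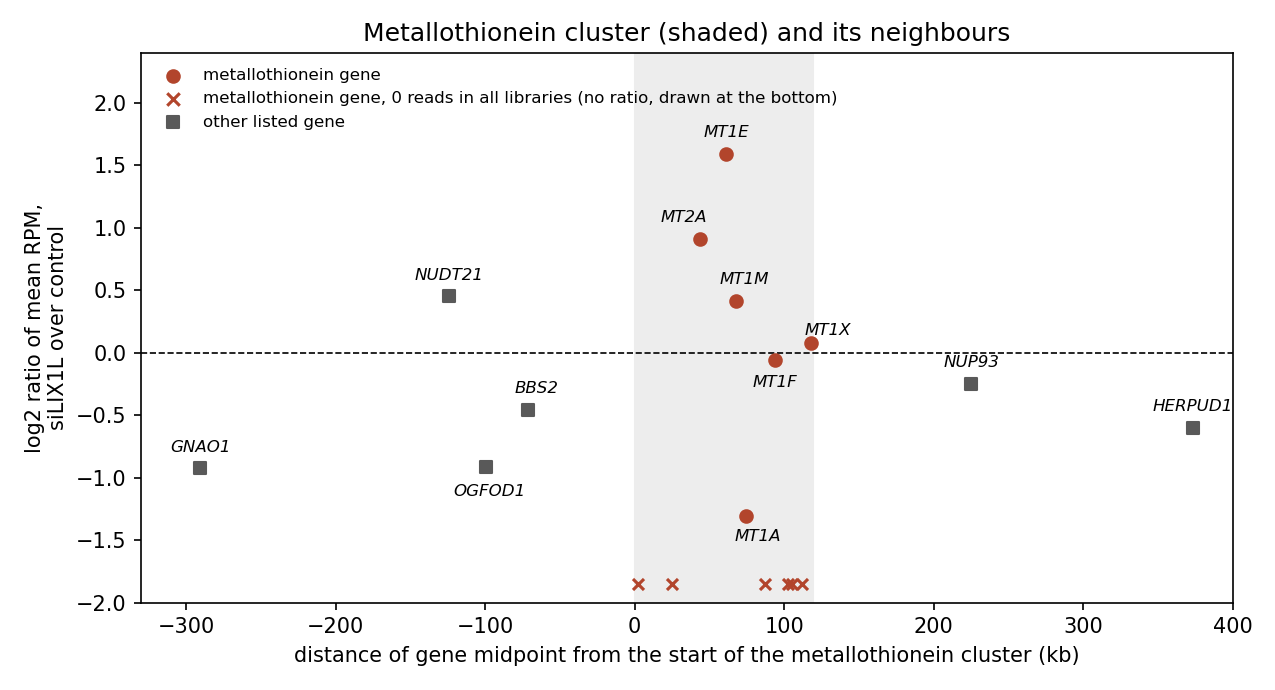
Log2 ratio of mean RPM, siLIX1L over control, for metallothionein genes (circles) and neighbouring genes (squares) by distance from the start of the cluster on chromosome 16, shaded. MT1E and MT2A stand highest, and crosses at the bottom are metallothionein genes with 0 reads, which have no ratio.

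Of all other genes tested, the 5 whose profile over the 5 libraries lay nearest to that of the summed metallothioneins were DDX54, RRP36, IDH1, SFXN3 and PHLDB1. Likeness was the root mean square distance of log2(RPM + 0.5), each profile taken about its own mean, and it was 0.11, 0.11, 0.14, 0.16 and 0.16 for them, against a median of 0.60 over the genes tested. The deviation of the summed metallothioneins was 0.58, 0.19 and 0.44 in siLIX1L 1, 2 and 3, against -0.89 and -0.32 in control 1 and 2. DDX54, an RNA helicase, deviated by 0.40, 0.28 and 0.38 in siLIX1L cells and -0.78 and -0.28 in control cells, so that control 1 was the lowest library in both. The 5 libraries fall in 2 groups, and a near profile is one that shares the group difference and the low value of control 1.

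**Figure D4:**
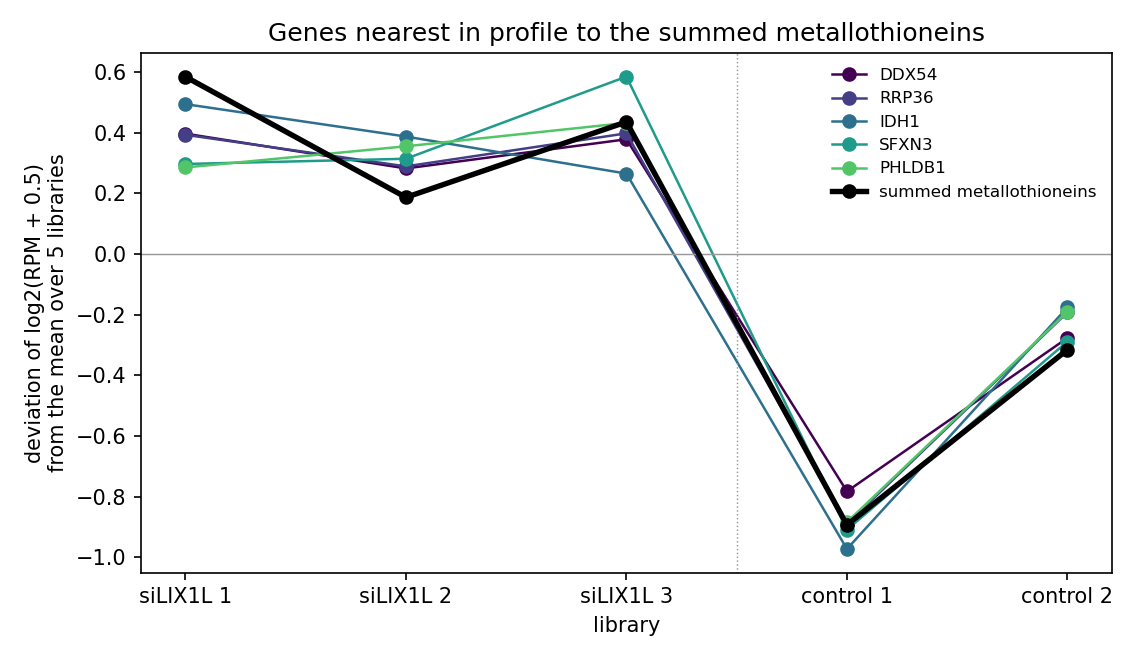
Deviation of log2(RPM + 0.5) from its mean over the 5 libraries for the summed metallothioneins and the 5 nearest genes, siLIX1L libraries left of control libraries. All 6 profiles lie above 0 in each siLIX1L library and are lowest in control 1.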

How the data were processed

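RNA of LX-2 cells was sequenced with standard Illumina libraries, per the labels' protocols, and the siRNA named in the labels sets the group. FPKM of 19936 genes is what the authors deposited for each library, and for siLIX1L 3 also a gene length and a raw read count, per the file headers. Bowtie 0.12.2 and the build mm8 are named in the submitters' processing notes, mm8 being a mouse build at odds with the human Ensembl IDs, so the build used is uncertain. Deposited lengths were equal to gene spans of GENCODE 29 (GRCh38) in 98.2% of matched genes, and that annotation gives the coordinates. Since introns count as length, genes with long introns have low FPKM.

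FPKM times length gave whole reads for 100% of values (tolerance 0.01 reads), equal to the deposited counts for all 19936 genes of siLIX1L 3. RPM is relative to the recovered totals. Groups were compared with limma 3.58.1 in R 4.3.3 on log2(FPKM + 1), using a robust eBayes fit with a trend, two-sided p-values adjusted by Benjamini-Hochberg and a threshold of 0.05. The 6464 genes that reached 1 FPKM in 2 or more libraries were tested, and fold changes on that scale understate those of low genes. It called 121 genes, 48 higher and 73 lower. EdgeR 4.0.16 (quasi-likelihood, TMM; 188 calls of 13026 genes) and DESeq2 1.42.0 (Wald test; 1673 of 13334 with an adjusted p) were run on the recovered reads, and edgeR gives the value where a gene is below the limma minimum. The main limma, edgeR and DESeq2 fits were tested on simulated counts, and the other steps were not. Intervals and floors cover counting error only, and reads carry no molecular identifiers.

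The members and lists were chosen with earlier results of these data known. Named are the 10 members, LIX1L, the other metallothioneins, in each further zinc, copper, MTF1 target and glucocorticoid list up to 4 genes past the threshold or, with none, up to 2 with the smallest p, and the 5 nearest profiles. SLC39A11 and PER1, called by DESeq2 alone, the markers of cell types and the neighbours of the cluster were named after their values were seen; 1 neighbour is not reported here. Replicate numbers come from the titles, which do not say that they pair libraries.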

Additional observations from a re-analysis of the deposited data

How the results depend on the processing

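The number of genes called was 121 in limma and depended on the setting: 0 with no minimum level (3407 at an unadjusted p under 0.05), 0 with siLIX1L 1 and 2 averaged, 0 with a trend on transcript length and GC content removed, 233 with quantile normalization, 188 with edgeR and 1673 with DESeq2. It ranged from 0 to 1517 with 1 library left out, being 0 without each siLIX1L library, 258 without control 2 and 1517 without control 1. Of the members 1 was called in limma, 0 with no minimum level, 0 with siLIX1L 1 and 2 averaged, 0 with the trend removed, 2 with quantile normalization, 2 with edgeR, 3 with DESeq2, and 0 to 2 with 1 library left out. The replicate number as a block gave 94 genes and 0 members (MT1E adjusted p 0.0550 by limma). The 2 same-numbered pairs had correlations of -0.12 and -0.10, so the numbers are not taken to pair libraries. The summed metallothionein ratio of 1.98 lay between 1.66 and 2.47 with 1 library left out. MT1E, MT2A, MT1M, MTF1 and SLC30A1 were positive in all settings run. Signs turned for MT1F (from -0.26 to 0.21 with 1 library left out, 0.035 with siLIX1L 1 and 2 averaged, 0.39 with the trend removed), MT1X (-0.12 and -0.071 by edgeR without siLIX1L 2 and without control 1), SLC39A10 (0.16 and 0.47 by edgeR without siLIX1L 3 and without control 2), SLC39A14 (from -0.18 without control 2 to 0.37 without control 1, -0.049 with the trend removed) and SOD1 (from -0.57 without control 1 to 0.0017 without control 2). The cause was not tested. Of 399 values, each of 1 of 30 named genes under 1 setting, 336 kept direction and call, 28 lost the call, 24 gained it and 11 changed sign. The number of libraries, 5, limits all of these values. Robust dispersion in edgeR and its fits with 1 library left out or with siLIX1L 1 and 2 summed were chosen after seeing the data.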
